A study of Mus musculus with 6 samples.

Results

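Selplg, Adgre5, Cd44, Pecam1 and Gja1 encode surface proteins outside the integrin family through which blood cells attach to vessel walls, matrix and each other. All probe sets annotated with 1 of these symbols and no other were taken, which gave 12 probe sets of the 28821 in the deposited value table: 1 each for Selplg, Adgre5 (older symbol Cd97) and Pecam1, 3 for Cd44 and 6 for Gja1. They were read on 6 Affymetrix Mouse430_2 arrays, each hybridised with RNA from sorted cells that lacked lineage markers and Sca1 and carried Kit, the fraction that holds committed myeloid progenitors. The 3 wild-type samples came from the bone marrow of wild-type MF1 mice. The 3 leukemia samples came from the spleens of 3 MF1 mice, lethally irradiated as adults and transplanted with hematopoietic progenitor cells transduced with AE9a, a truncated form of the AML1-ETO fusion protein. All mice were 12 to 16 weeks old and each array used 200 ng of total RNA. Tissue, transplantation and irradiation differ between the groups together with the leukemia, and their parts in any difference cannot be told apart. The wild-type labels name mice in the plural, so pooled animals are possible there, and every p-value rests on the spread between samples that may be technical.

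A rolling leukocyte first meets the vessel wall through selectins, and its ligand PSGL-1, the product of Selplg, binds them only after it has been decorated with fucose, sialic acid and sulfate. CD44 holds cells to the matrix sugar hyaluronan, and CD97, an adhesion G protein-coupled receptor encoded by Adgre5, binds CD55 on neighbouring cells. PECAM1 (CD31) binds itself across cell contacts and recruits phosphatases inside the cell, and connexin 43, the product of Gja1, forms gap junctions between adjoining cells. All of these are known on normal or leukemic blood progenitors or on the niche cells around them.

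The arrays of the groups stood apart as wholes. Across probe sets, pairs of wild-type arrays correlated at 0.992 to 0.994 (Pearson's r), pairs of leukemia arrays at 0.969 to 0.978 and mixed pairs at 0.902 to 0.925. The median SD of a tested probe set was 0.12 in wild-type and 0.23 in leukemia on the log2 scale. Leukemia replicate 1 shared its fluidics run with the wild-type arrays, while leukemia replicates 2 and 3 shared another. The sort marker Kit read 10.35 to 10.42 log2 in wild-type and 9.34 to 9.80 in leukemia with its brightest probe set, and a dimmer Kit probe set changed by 0.72 (limma adjusted p = 0.199). Cd34 fell by 3.60 and Ptprc, the CD45 gene, fell by 7.64, while no probe set of the Sca1 gene Ly6a was analysed here. Ptprc read 2.92 to 3.46 log2 on the leukemia arrays, below the 40th percentile of each, so it was tested through the wild-type arrays only. The 3' minus 5' difference of Gapdh, a measure of RNA integrity, was -0.14 to -0.06 in wild-type and 0.01 to 0.31 in leukemia, while that of Actb was 0.32 to 0.50 and 0.31 to 0.70, with overlap. The 5' probe set of 18S ribosomal RNA was at 7.77 to 9.41 and at 11.14 to 12.35 log2. The Gapdh and 18S measures move with every difference given here, and their part in it was not tested.

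Most of the probe sets were lower in leukemia. A probe set was tested with limma where it reached the 40th percentile of its array (5.39 to 5.54 log2) on at least 3 arrays, and 8 of the 12 did. Of these 8, 6 fell, 1 rose and 1 did not pass at an adjusted p of 0.05, where 39.1% of all 16327 tested probe sets passed (17.7% higher, 21.4% lower). Of the calls 45.3% were higher, and 53.1% when the arrays were centred on their medians. The 3 tested probe sets of Pecam1 and Gja1 reached that percentile on wild-type arrays only, so they had to differ and their count supports nothing. The values of the groups did not overlap for any of the 12 probe sets, the 8 tested ones included, and 57.1% of all tested probe sets had groups that did not overlap. The 12 also hold 4 untested probe sets of Gja1, and the 8 hold the 3 that had to differ. The plot of the values by array shows every measurement.

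**Figure D1:**
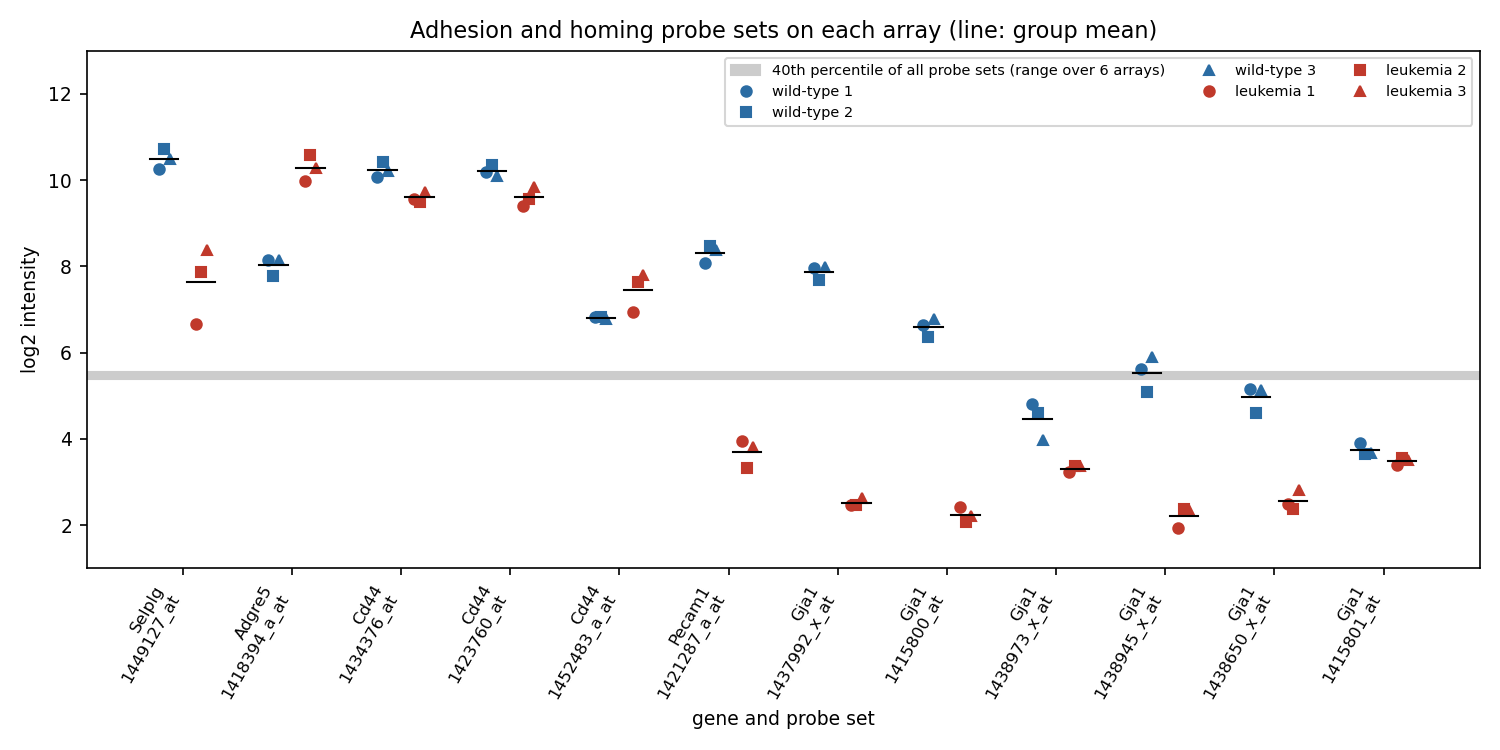
Log2 intensity (vertical axis) of the 12 probe sets of Selplg, Adgre5, Cd44, Pecam1 and Gja1 (horizontal axis) on 3 wild-type (blue) and 3 leukemia (red) arrays, with a marker shape for each replicate number, a black line at each group mean and a grey band at the 40th percentile of all probe sets. Adgre5 and Cd44 1452483_a_at lie higher on the red arrays, and Pecam1 and Gja1 1437992_x_at drop from above the grey band to below it.

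Selplg, the gene of the selectin ligand PSGL-1, fell in leukemia. Its probe set 1449127_at read 10.26, 10.72 and 10.50 log2 on wild-type arrays 1, 2 and 3 and 6.66, 7.86 and 8.38 on leukemia arrays 1, 2 and 3. Every leukemia array lay below every wild-type array, and the leukemia arrays were far from each other, with leukemia array 1 lowest. The change from 10.49 ± 0.23 to 7.63 ± 0.88 (SD, n = 3 each) was -2.86 ± 0.41 (SE), a 7.28-fold lower level (limma, adjusted p = 0.00184). Of the tested probe sets 2.81% fell at least as far. An SD in leukemia at least as large was found for 3.93% of tested probe sets. The transcript stayed in the upper part of each array, between the 55.7th and 75.4th percentile of all probe sets in leukemia against the 93.2nd to 95.4th in wild-type. Without leukemia replicate 1 the change was -2.38, and leukemia replicate 1 alone, in the shared fluidics run, stood at -3.84 from the wild-type mean. In bulk RNA of this kind, fewer cells that carry a transcript and less of it in each cell cannot be told apart.

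The genes that decorate selectin ligands moved in both directions. Of 21 listed genes for selectins, their ligands and the enzymes that build the bound sugars, 18 were measured and tested: 4 rose, 7 fell and 7 did not pass, with a median change of -0.20 against -0.09 over all 9715 tested genes. Of all tested genes, each read by its brightest probe set, 16.6% rose and 24.9% fell. Fut7, the fucosyltransferase that completes sialyl Lewis X, the sugar that selectins bind, fell from 7.88 ± 0.21 to 5.41 ± 0.20 log2 (change -2.46 ± 0.18 SE, limma adjusted p = 9.96e-05). Its values were 7.66, 8.08 and 7.89 on the wild-type and 5.23, 5.39 and 5.63 on the leukemia arrays, well apart. The related fucosyltransferase gene Fut4 fell by 1.79, which no longer passed when wild-type replicate 2 (limma adjusted p = 0.0666) or 3 (0.0581) was left out. The sialyltransferase gene St3gal3 fell by 1.39, which no longer passed when any 1 wild-type replicate (limma adjusted p = 0.104 to 0.118), leukemia replicate 1 (0.0809) or leukemia replicate 3 (0.101) was left out, or with no intensity trend (0.0502). In the other direction Gcnt1, which starts the branched O-glycan that carries the bound sugar on PSGL-1, rose by 1.81, and the sialyltransferase gene St3gal6 rose by 2.24 (1.17 once blocked on the fluidics run). Podxl, the gene of a sialomucin related to CD34, rose from 5.17 ± 0.19 to 10.57 ± 0.64 (change 5.40 ± 0.31 SE, limma adjusted p = 3.30e-05; 4.88 with 16 added before the log). Podxl and Gcnt1 reached the 40th percentile on leukemia arrays only and so were tested through the group where they are high. The selectin gene Selp, among the falls, reached it on wild-type arrays only.

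Adgre5, the gene of the receptor CD97, rose in leukemia. Its probe set 1418394_a_at read 8.14, 7.78 and 8.15 log2 on wild-type arrays 1, 2 and 3 and 9.97, 10.58 and 10.28 on leukemia arrays 1, 2 and 3. The arrays of each group lay close together, and the lowest leukemia array stood clear of the highest wild-type array. The change from 8.02 ± 0.21 to 10.28 ± 0.31 (SD, n = 3 each) was 2.26 ± 0.19 (SE), or 4.77-fold (limma, adjusted p = 1.57e-04), and 2.03% of tested probe sets rose at least as far. The gene was thus at the 68.6th to 72.7th percentile of all probe sets in wild-type and at the 91.3rd to 94.8th in leukemia, the reverse of the shift of Selplg. The ending of the ID marks a probe set shared by transcript variants of the gene, so that the forms of CD97 with different numbers of EGF-like repeats cannot be separated here.

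Among the other adhesion G protein-coupled receptors and their partners, several receptor genes fell. The listed ligand genes of CD97, Cd55 and Thy1, differed in opposite directions. Of 20 listed receptors, CD97 ligands and coupled signalling genes 15 were measured and 11 tested, of which 2 rose, 6 fell and 3 did not pass (median change -0.46). Gna13 was among those that did not pass with its brightest probe set (-0.01), while 3 of its 6 other tested probe sets passed as higher. Adgrl4, an endothelial family member, fell from 9.22 ± 0.42 to 3.20 ± 0.08 log2 (change -6.01 ± 0.23 SE, limma adjusted p = 7.52e-06), and none of its leukemia arrays reached the 40th percentile. Adgrg3 (GPR97), a receptor of granulocytes, fell by 3.30, Adgra3 fell by 1.77 and Adgrl2 fell by 1.23, and these too reached it on wild-type arrays only. Cd55, whose product is a complement regulator and a bound partner of CD97, rose from 6.34 ± 0.59 to 8.67 ± 0.69 (change 2.33 ± 0.41 SE, limma adjusted p = 0.00479; 1.54 once blocked on the fluidics run). Its values were 6.79, 5.68 and 6.57 on the wild-type arrays and 7.89, 9.19 and 8.93 on the leukemia arrays, with no overlap. Thy1 was too dim to be tested and went the other way. It read 5.01, 5.92 and 5.73 on the wild-type arrays against 3.99, 3.74 and 4.34 on the leukemia arrays, a difference of -1.53. Adgrl1, a latrophilin, rose by 0.94 with its brightest probe set, while another tested probe set of the gene had the opposite sign.

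Cd44 differed between the groups by less than the other genes, and its probe sets disagreed in direction. The probe set 1434376_at read 10.07, 10.43 and 10.22 log2 on wild-type arrays 1, 2 and 3 and 9.57, 9.50 and 9.72 on leukemia arrays 1, 2 and 3. It changed from 10.24 ± 0.18 to 9.60 ± 0.11 (SD, n = 3 each), by -0.64 ± 0.12 (SE), or 1.56-fold lower (limma, adjusted p = 0.00558). The groups were separate by a margin similar to the range within wild-type. The probe set 1423760_at read 10.19, 10.34 and 10.10 against 9.40, 9.56 and 9.83 in the same order and changed by -0.61 ± 0.13 (limma, adjusted p = 0.0111). That change no longer passed when wild-type replicate 2 was left out (limma, adjusted p = 0.0509). A change at least as far down was common, at 17.8% and 18.8% of tested probe sets, and on every array both read above the 86.9th percentile or at it.

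The third Cd44 probe set, 1452483_a_at, was higher on the leukemia arrays without passing. It read 6.82, 6.82 and 6.79 log2 on the wild-type arrays and 6.93, 7.63 and 7.79 on leukemia arrays 1, 2 and 3, so that the wild-type arrays were nearly equal and leukemia array 1 lay just above them. Its change was 0.64 ± 0.24 SE (limma, adjusted p = 0.0689). It passed without leukemia replicate 1 (0.90, limma adjusted p = 0.00209), with array weights (0.82, 0.00336), on centring of the arrays (0.72, 0.0349) and after quantile normalization (0.68, 0.0411), and it was at 0.12 for leukemia replicate 1 alone in the shared fluidics run. Within each array it lay -3.31, -3.57 and -3.37 from the mean of the other Cd44 probe sets in wild-type and -2.56, -1.91 and -1.98 in leukemia. That distance was smaller by 1.27 in leukemia, a description of the same values that was chosen with their directions known. Among 1006 genes with 3 or more tested probe sets and at least 1 call, 36.1% had a tested probe set of the opposite sign. CD44 is known for variant exons, and no source used here says which Cd44 transcripts each probe set reads.

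Genes around CD44 moved in both directions. Of 23 listed genes for hyaluronan synthesis and breakdown, CD44 partners and the linkers of CD44 to actin, 16 were measured and 12 tested, of which 7 rose, 2 fell and 3 did not pass (median change 0.37). Cd74, the invariant chain, which also serves with CD44 as a receptor for MIF, fell from 9.56 ± 0.09 to 5.70 ± 0.46 log2 (change -3.87 ± 0.24 SE, limma adjusted p = 4.23e-05). Mif, the gene of that ligand, fell by 1.84, from 12.55 ± 0.03 to 10.71 ± 0.62, with leukemia array 3 lowest. The protease gene Mmp14 rose by 1.86, the membrane skeleton linker gene Ank1 rose by 1.43 (0.76 once blocked on the fluidics run) and Esrp2, a regulator of epithelial splicing, rose by 1.10.

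Pecam1 fell from a middling to a low level. The probe set 1421287_a_at read 8.08, 8.47 and 8.38 log2 on wild-type arrays 1, 2 and 3 and 3.96, 3.32 and 3.82 on leukemia arrays 1, 2 and 3. The gap between the groups was many times the range within either. The change from 8.31 ± 0.21 to 3.70 ± 0.34 (SD, n = 3 each) was -4.61 ± 0.22 (SE), or 24.3-fold (limma, adjusted p = 1.40e-05), and 0.686% of tested probe sets fell at least as far. In leukemia the probe set lay between the 10.7th and 19.9th percentile of all probe sets, where the size of a fold change depends on how background was handled. With 16 added to each intensity before the log the change was -3.51, or 11.4-fold.

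Markers of other cell types, some of which carry PECAM1 or PSGL-1, changed in part. Of 14 endothelial markers 11 were measured and 8 tested, with 3 higher and 4 lower. Their summed level ran from 10.86 to 10.94 log2 in wild-type and from 10.82 to 11.32 in leukemia, and Cdh5, Cldn5 and Sox17 lay below the 40th percentile on all arrays. Among these markers Tie1 fell by 2.63 and Emcn fell by 2.62 (-1.60 with 16 added before the log), while Tek rose by 2.51, Egfl7 rose by 0.83 and Plvap rose by 0.81. Of 11 megakaryocyte and platelet markers 8 were measured and 6 tested, with 2 higher (Gp5 by 2.05, Treml1 by 0.77) and 4 lower, among them Pf4 (fell by 3.85) and Ppbp (fell by 2.92), and the summed level ran from 10.96 to 11.11 in wild-type and from 9.84 to 10.85 in leukemia. Of 10 macrophage markers 9 were measured and 6 tested, with 5 lower and 1 that did not pass. Their summed level was 10.72 to 11.40 in wild-type and 7.47 to 7.81 in leukemia. Csf1r, which fell by 6.27, was the brightest of them in wild-type, while Adgre1, Mertk and Spic lay below the 40th percentile on all arrays. Of the erythroid markers 4 of 8 were measured and tested, with 2 higher (Alas2 by 3.87, Slc4a1 by 3.16), and their summed level was 11.27 to 12.00 in wild-type and 11.88 to 12.24 in leukemia. Of the neutrophil markers 5 of 8 were measured, none bright enough to be tested, with a summed level of 7.13 to 9.39 in wild-type and 6.47 to 6.57 in leukemia. Of the B cell markers 3 of 6 were measured and 1 tested, Cd79b, which changed by -0.98 (limma adjusted p = 0.153; -1.53 and 0.0139 without leukemia replicate 2, -0.46 and 0.332 without leukemia replicate 3), and their summed level was 7.54 to 7.97 and 6.06 to 7.86. Of the T and NK cell markers 3 of 8 were measured and 1 tested, Nkg7, which fell by 3.64, and their summed level was 11.08 to 11.44 and 7.68 to 7.91. That sum rests mainly on Nkg7, as Cd8a and Cd2 lay below the 40th percentile on all arrays. Tie1, Emcn, Vwf and Ppbp reached the 40th percentile on wild-type arrays only, and Alas2 and Slc4a1 on leukemia arrays only. The 5 macrophage markers that were lower (Csf1r, Cd68, C1qa, C1qb and Cd163) also reached it on wild-type arrays only. All of these had to differ, so their counts support nothing. The part of these cell types in the changes of the 5 genes was not tested.

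Other immunoglobulin superfamily adhesion genes moved in both directions. Of 29 listed genes, PECAM1's partners included, 25 were measured and 18 tested, of which 4 rose, 5 fell and 9 did not pass (median change -0.07). Icam4, a red cell adhesion protein gene, rose by 1.26 and Icam1, the gene of an integrin ligand, rose by 1.19. Icam5 rose by 0.61, which no longer passed when any 1 wild-type replicate or leukemia replicate 2 or 3 was left out (limma adjusted p = 0.0507 to 0.0798) or with the fluidics run as a block (0.0994). Sirpa, the CD47 receptor gene of myeloid cells, fell by 2.85, which no longer passed when wild-type replicate 2 (limma adjusted p = 0.0544) or 3 (0.0502) was left out, and the cell adhesion gene Alcam, which reached the 40th percentile on wild-type arrays only, fell by 2.07. Ptpn6, the gene of SHP-1, a phosphatase that PECAM1 recruits, fell by 0.75, with values of 9.73, 9.95 and 9.93 against 8.88, 9.29 and 9.19.

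Gja1, the connexin 43 gene, fell to the low end of the scale in leukemia. Its brightest probe set, 1437992_x_at, read 7.96, 7.69 and 7.98 log2 on wild-type arrays 1, 2 and 3 and 2.47, 2.47 and 2.62 on leukemia arrays 1, 2 and 3. All leukemia arrays were close to the low end of the scale, whose lowest values were 1.72 to 1.91 there. The change from 7.88 ± 0.16 to 2.52 ± 0.09 (SD, n = 3 each) was -5.36 ± 0.16 (SE), or 41.1-fold (limma, adjusted p = 4.57e-06), and 0.337% of tested probe sets fell at least as far. With 16 added before the log it was -3.53, or 11.6-fold, beside -3.51 for Pecam1, so the falls of these genes have no order. The other tested probe set, 1415800_at, read 6.65, 6.37 and 6.78 against 2.41, 2.08 and 2.22 and changed by -4.36 ± 0.17 (limma, adjusted p = 8.83e-06; -2.45 with 16 added before the log).

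The remaining 4 probe sets of Gja1 were too dim to be tested and are given as values. The probe set 1438945_x_at read 5.61, 5.09 and 5.90 log2 on the wild-type arrays and 1.92, 2.37 and 2.34 on the leukemia arrays, a difference of -3.32. For 1438650_x_at the values were 5.15, 4.59 and 5.13 against 2.48, 2.38 and 2.81, a difference of -2.40. The last pair were lower still in wild-type, 1438973_x_at at 4.81, 4.61 and 3.98 against 3.22, 3.36 and 3.36 and 1415801_at at 3.90, 3.64 and 3.66 against 3.39, 3.56 and 3.50. All 6 Gja1 probe sets were thus lower in leukemia, with differences of -5.36 to -0.25 log2, and every leukemia reading lay between 1.92 and 3.56. The differences were smaller for probe sets that were dimmer in wild-type. Their shared transcript makes them readings of 1 gene and not replicates, and 4 of the 6 IDs end in _x_at, which marks probes that can also bind other transcripts.

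The start-site windows of Gja1 and Cd44 are shown because AE9a keeps the DNA-binding domain of AML1 (RUNX1). They are the 2 of the 5 genes with an entry in the table used, and the windows of Selplg, Adgre5 and Pecam1 were not analysed here. They are the 250 bases before the RefSeq start site (GRCm38.p6), on the gene's own strand, at chr10:56377050-56377299 (plus strand) for Gja1 and chr2:102901666-102901915 (minus strand) for Cd44. Capitals mark matches to the motifs searched on both strands.
Gja1: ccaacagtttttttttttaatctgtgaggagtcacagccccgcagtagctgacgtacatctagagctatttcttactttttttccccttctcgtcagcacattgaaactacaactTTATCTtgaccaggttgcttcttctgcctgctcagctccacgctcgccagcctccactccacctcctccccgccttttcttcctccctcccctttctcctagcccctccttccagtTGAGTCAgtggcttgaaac
Cd44: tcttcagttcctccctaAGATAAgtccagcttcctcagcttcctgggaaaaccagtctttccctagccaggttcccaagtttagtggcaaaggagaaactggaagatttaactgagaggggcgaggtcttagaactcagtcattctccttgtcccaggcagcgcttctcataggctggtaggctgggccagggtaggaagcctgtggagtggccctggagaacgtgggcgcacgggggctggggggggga
The RUNX motif TGTGGT has no match in either window, where 14.0% of all 32851 windows of that length hold a match. The AP-1 motif TGAGTCA is found once for Gja1, 19 to 13 bases before the start, and in 4.46% of all windows. The GATA motif AGATAA is found once in each window, on the reverse strand at 135 to 130 bases before the start for Gja1 and on the forward strand at 233 to 228 bases for Cd44, and in 9.99% of all windows. The motifs do not overlap. A match is a string of letters and shows no bound site.

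Few other gap junction genes could be read, and a scaffold gene stood far above wild-type. Of 26 listed connexin, pannexin and junction genes 9 were measured and 5 tested, of which 2 rose, 1 fell and 2 did not pass (median change 0.44). The other measured connexins, Gjb1 and Gjc1, were below the 40th percentile on all arrays. The pannexin gene Panx1 fell by 1.29, with values of 8.47, 8.80 and 8.80 against 7.33, 7.88 and 6.98. Tjp1, whose product ZO-1 is a scaffold that binds connexin 43, rose from 4.18 ± 0.34 to 10.01 ± 0.21 log2 (change 5.82 ± 0.21 SE, limma adjusted p = 6.66e-06), opposite to Gja1. It reached the 40th percentile on leukemia arrays only, so it was tested through the group where it is high, and with 16 added before the log its change was 4.93. Ctnna1, the gene of alpha-catenin, rose by 0.44. Stromal markers, which accompany GJA1-bearing niche cells, were mostly dim: of 12 listed 9 were measured and 3 tested, of which 1 was lower (Pdgfrb, at -1.52, or -1.01 once blocked on the fluidics run) and 2 did not pass. Their summed level was 11.63 to 11.93 log2 in wild-type and 11.78 to 12.22 in leukemia, of which Vim, expressed in most blood cells, was the brightest member, while Col1a1, Col3a1, Pdgfra and Dcn lay below the 40th percentile on all arrays.

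Genes of homing and of retention in the marrow moved in both directions, and the larger changes among them were falls. Of 24 listed genes 20 were measured and 17 tested, of which 2 rose, 6 fell and 9 did not pass (median change -0.41). The chemokine receptor gene Cxcr4 fell by 5.34, the sphingosine phosphate receptor gene S1pr3 fell by 5.21 and the tetraspanin gene Cd9 fell by 4.90, and none of the 3 reached the 40th percentile on a leukemia array. The GTPase gene Rap1a, an activator of integrins, rose by 0.69. Rac1 rose by 0.22, which no longer passed when any 1 wild-type replicate or leukemia replicate 3 was left out (limma adjusted p = 0.0680 to 0.101), with the fluidics run as a block (0.0647) or with no intensity trend (0.132). Over the 6 lists together 81 genes were tested, of which 21 rose (25.9%, against 16.6% of all tested genes) and 27 fell (33.3%, against 24.9%), with a median change of -0.17. Selp, Adgrg3, Adgrl2, Adgrl4, Adgra3, Alcam, Cxcr4, S1pr3 and Cd9 among the falls reached the 40th percentile on wild-type arrays only. Gcnt1, Podxl and Tjp1 among the rises reached it on leukemia arrays only, and all of these had to differ. The lists were also chosen with earlier results of these data known, so the shares show no excess of change among adhesion genes. The plot of the adhesion lists shows each tested gene.

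**Figure D2:**
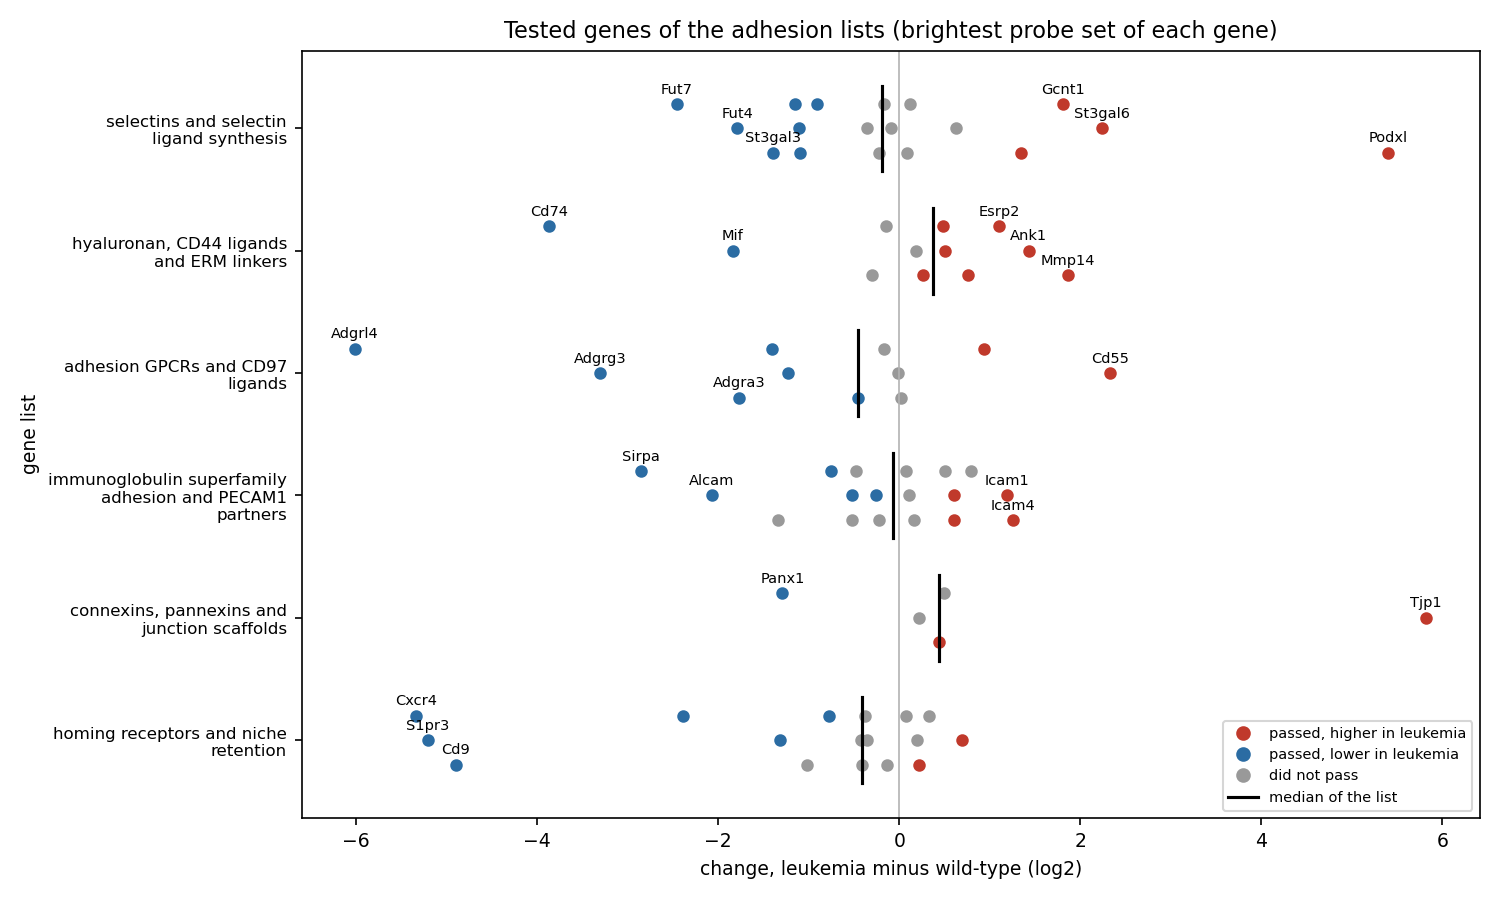
Change in log2 (leukemia minus wild-type, horizontal axis) of each tested gene of the 6 adhesion lists (vertical axis), read by its brightest probe set, with red for genes that passed as higher, blue for genes that passed as lower and grey for genes that did not pass. Black bars mark list medians, from -0.46 for the adhesion receptors to 0.44 for the junction genes, and Tjp1 and Podxl lie farthest right and Adgrl4 farthest left.

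Set among all tested probe sets, the 5 genes occupied different parts of the range. The tested Gja1 and Pecam1 probe sets lay in the far lower tail, Selplg in the lower tail, those of Cd44 near the centre on both sides and Adgre5 in the upper tail. The median change over all tested probe sets was -0.03.

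**Figure D3:**
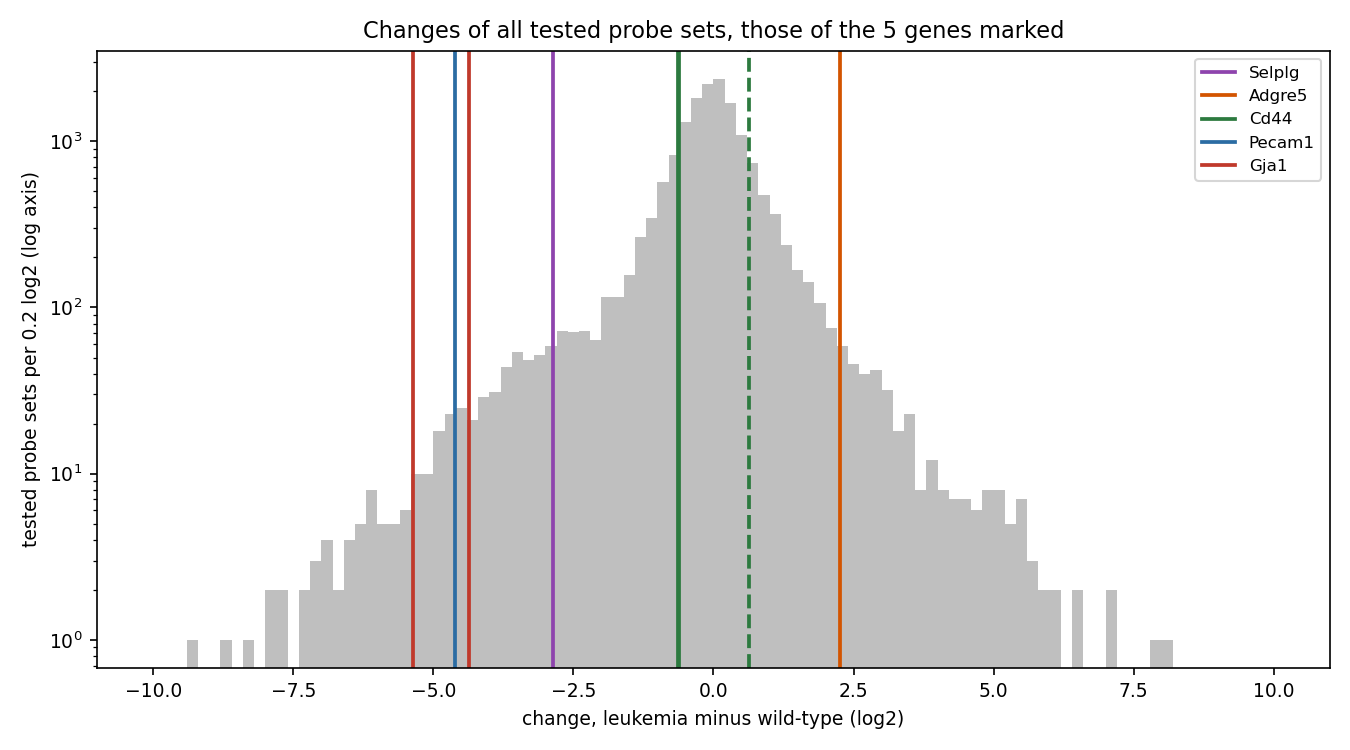
Number of tested probe sets (vertical axis, log scale) by change in log2 (leukemia minus wild-type, horizontal axis, bins of 0.2), with vertical lines at the 8 tested probe sets of the 5 genes, dashed for the Cd44 probe set that did not pass. Lines for Gja1 stand at -5.36 and -4.36, Pecam1 at -4.61, Selplg at -2.86 and Adgre5 at 2.26.

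For each gene the tested genes with the most similar profile over the 6 arrays were found from the root mean square difference of log2 values taken relative to each gene's wild-type mean, among 9714 genes. The nearest to Selplg were Mrtfa (0.11 log2), Apoe (0.25) and Acot1 (0.36). Adgre5 was nearest to Slc2a9 (0.09), Slc41a3 (0.14) and Bmp2k (0.15). Cd44 was nearest to Sf3a1 (0.05), Ipo9 (0.06) and Zfp703 (0.07), Pecam1 to Wls (0.13), Serpinf1 (0.14) and Ctsh (0.16), and Gja1 to AW112010 (0.17), Svip (0.22) and Prkd3 (0.24). The arrays fall into 2 groups, so by this measure genes with a change of similar size lie near each other.

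The directions of the 8 tested probe sets were the same under each setting in which they could be fitted, and the sizes of the Pecam1 and Gja1 falls moved most with the offset before the log. The plot of the change by setting shows the values.

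**Figure D4:**
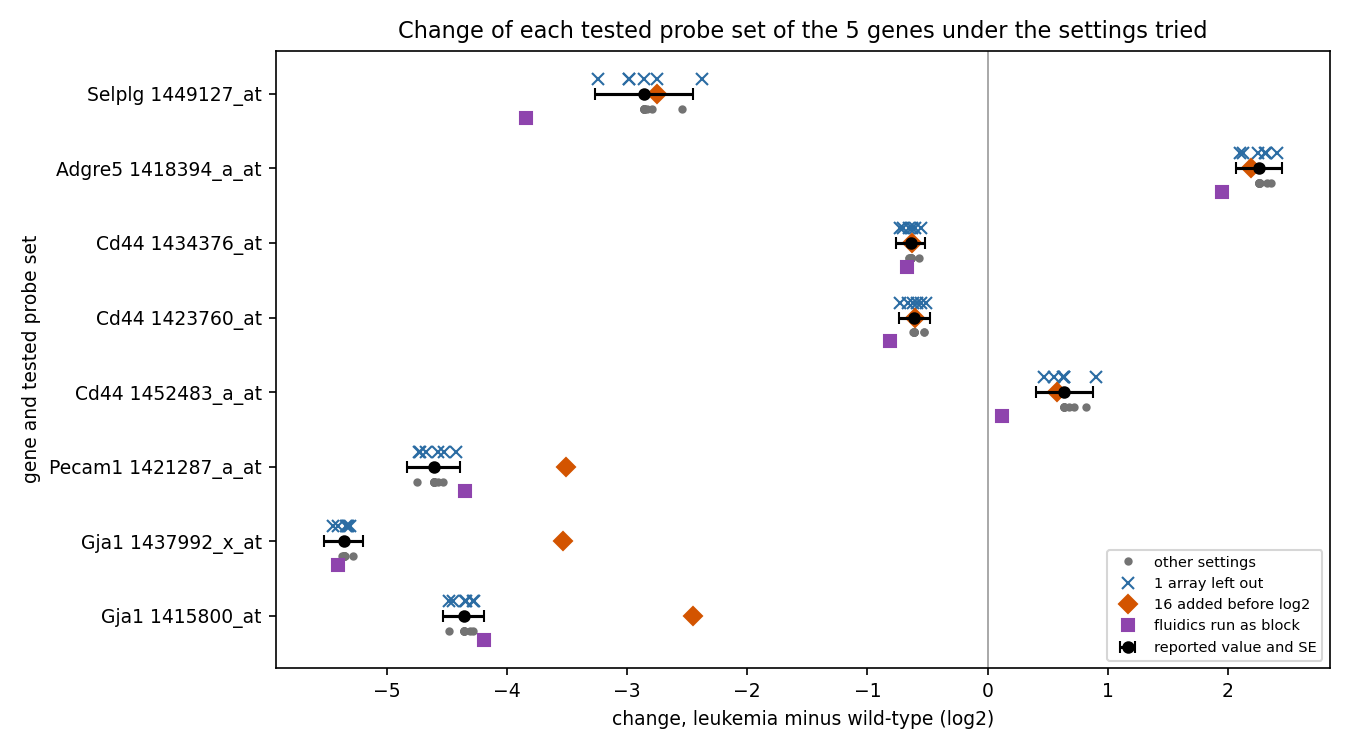
Change in log2 (leukemia minus wild-type, horizontal axis) of the 8 tested probe sets (vertical axis) as reported with its SE (black), with 1 array left out (blue crosses), with 16 added before the log (orange diamonds), with the fluidics run as a block (purple squares) and under the other settings (grey). Selplg is at -3.84 and Cd44 1452483_a_at at 0.12 with the block, and Gja1 1437992_x_at is at -3.53 with 16 added.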

How the data were processed

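The value table deposited by the authors holds intensity values on a linear scale (3.31 to 18869), and RMA is named per the submitters' processing notes, with its version and settings not given in the sources used here. The other deposited files are array run records (a text entry, not a measurement), used only to find the 2 fluidics runs. Log2 was taken with no pseudocount, and 0 columns were left unmapped. The platform annotation gave 1 gene symbol for 23750 of 28821 probe sets, several for 677 and none for 4355, beside 39 controls. Of these 23674 matched a RefSeq gene ID (GRCm38.p6, used for names), with 0 symbols changed.

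Probe sets at or above the 40th percentile of their array on at least 3 arrays (16327) entered a limma fit (version 3.58.1, R 4.3.3) of leukemia against wild-type. It had no covariate, left 4 residual degrees of freedom and used eBayes with trend, two-sided p-values and Benjamini-Hochberg adjustment over all of them, at 0.05. Lists were read by each gene's brightest probe set (9715 genes tested) and described by counts. Named were all 12 probe sets, up to 3 genes per direction of each list whose groups did not overlap, the 3 most similar genes of each of the 5, sort markers and leading cell type markers. Further genes were named to give a limit. The members and lists were chosen with earlier results of these data known. Alternatives varied the filter, probe sets, offset, scaling, moderation, weights, blocks and arrays left out (with the tested probe sets kept). Data were simulated for leukemia against wild-type (16327 probe sets, 200 of them changed, with the same SD in both groups). Recovered were 3.03% of changes of 0.5 log2, 46.3% of changes of 1 and 88.1% of changes of 2, with 7 false calls. In the real data 39.1% passed and leukemia arrays varied more, so these shares need not hold there. The arrays were not treated as paired by replicate number. Figures were drawn with matplotlib 3.10.9, and the number of arrays (6) limits every precision.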

Additional observations from a re-analysis of the deposited data

How the results depend on the processing

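The brightest probe sets of Selplg, Adgre5, Cd44, Pecam1 and Gja1 kept their direction and stayed past the threshold under all 18 alternatives (17 for Gja1, whose probe set was left out of the setting without _s_at and _x_at probe sets): Selplg at -3.84 to -2.38, Adgre5 at 1.95 to 2.41, Cd44 at -0.73 to -0.55, Pecam1 at -4.75 to -3.51 and Gja1 at -5.45 to -3.53. Among these, the Pecam1 and Gja1 probe sets reached the 40th percentile on wild-type arrays only, so they had to differ and their passing supports nothing. With the fluidics run as a block each change is that of leukemia replicate 1 alone, assumed to vary as much as other arrays do. Of 59 other genes named by the stated rules and tested, 52 kept their call under each alternative that could be fitted, 7 had a call that changed and 0 reversed in sign. Several of the 52, such as Adgrl4, Cxcr4, Csf1r, Ptprc, Podxl and Tjp1, reached the 40th percentile in 1 group only. Those also had to differ, and their steady calls support nothing. The count of called probe sets (6382) was 4089 with only the brightest probe set of each gene, which tests fewer, of them 1637 higher against 2893. Leaving out 1 array gave 4022 to 7423 called (1782 to 3421 higher, 2131 to 4002 lower). It was 4053 without wild-type replicate 2 and 4022 without wild-type replicate 3, and the cause was not tested. The adhesion lists had 16 to 26 genes higher and 19 to 31 lower over all alternatives. With the replicate block 5380 were called. Same-numbered arrays deviated together with r of -0.10 to 0.04. Of 3 wild-type arrays 0 correlated best with their own number, and of 3 leukemia arrays 1 did. No pairing was seen, though with 3 arrays per group this check cannot exclude it. The 4 untested Gja1 probe sets and every probe set below the 40th percentile rest on dim signal, whose detection is not given.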
